A study of Homo sapiens with 4 samples.

Results

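The mRNAs of 10 enzymes of glycolysis and lactate formation, GPI, ALDOA, TPI1, GAPDH, PGK1, PGAM1, ENO1, PKM, LDHA and LDHB, were followed through PAR-CLIP of the helicase DHX36. They were chosen by name, as abundant housekeeping mRNAs, and are 10 of the 26490 genes in the deposited table. PAR-CLIP was performed in HEK293, a human embryonic kidney cell line, with stable lines that expressed a FLAG/HA-tagged protein from a tetracycline-inducible transgene. The FH-DHX36 line carried DHX36 isoform 2, and the FH-DHX36-E335A line carried isoform 1 with the helicase-inactivating exchange of glutamate for alanine, so that isoform and mutation cannot be told apart. Both lines were induced with 500 ng/ml tetracycline for 15 h, had 4-thiouridine in their RNA and were irradiated at 365 nm for 5 min. In both, the tagged protein was overexpressed beside the endogenous DHX36. There were 2 replicates per cell line, but each gene has 1 combined value per line. No replicate spread and no test between the cell lines was therefore possible, and intervals below cover counting error only.

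In glycolysis, glucose is split into pyruvate through a fixed order of cytoplasmic enzymes, and lactate dehydrogenase then converts pyruvate to lactate. The enzymes are used by nearly all cells, and their mRNAs are among the most abundant. DHX36 is a DEAH-box helicase that binds and unwinds G-quadruplexes, stacks of guanine tetrads that can form where several runs of guanines lie close together in an RNA strand.

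The table gives, for each gene and cell line, the number of clusters, which group the reads that overlap and carry T-to-C conversions, and the number of crosslinked reads within them. It lists no crosslinked reads for a gene without a cluster. The third value, NXPM, is the gene's crosslinked reads scaled to the total of that PAR-CLIP (RPM, per 1000000 reads), over RNA abundance plus 0.001. RNA abundance is not listed. It was recovered from reads and NXPM, and both recovered values were equal within 0.01% for all 5669 genes that had clusters in both data sets. The ratio of a gene's NXPM between the cell lines is therefore the ratio of its RPM. Depth differed, since the FH-DHX36 columns sum to 2160413 crosslinked reads and the FH-DHX36-E335A columns to 8752127.

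Of the 10 enzymes, 8 had at least 1 FH-DHX36 cluster, beside 22.4% of all genes, and 7 had a FH-DHX36-E335A cluster, beside 34.5%. Here and below, these shares over all genes are not matched for RNA abundance, which cannot be recovered for genes without a cluster. GPI, ALDOA, GAPDH, ENO1, PKM, LDHA and LDHB had clusters in both PAR-CLIPs. PGAM1 had 1 FH-DHX36 cluster and none with FH-DHX36-E335A. For TPI1 and PGK1 no cluster was called in either, so that neither reads nor abundance are known for them. Together the enzymes held 9146 of the FH-DHX36 reads, or 0.423% of all, and 21279 of the FH-DHX36-E335A reads, or 0.243%.

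Because DHX36 is known for binding runs of guanines, the stretches in which such runs lie close together are shown for the enzymes that the results turn on. The sense strand of each canonical transcript was scanned for stretches of 4 or more guanine runs, each of 2 or more guanines, with 1 to 7 nucleotides between neighbouring runs, counting matches that do not overlap. The table has no cluster positions, so whether any of these stretches lay in a cluster was not tested. Capitals mark the guanine runs, each stretch is written 5′ to 3′ on the strand of the mRNA, and positions are on GRCh37 (hg19). The stretches were chosen after the values were seen. They are shown for the aligned sites of LDHA and LDHB, for the LDHA 3'UTR, for PKM and ENO1 as mRNAs with many clusters, and for PGK1 and TPI1 as mRNAs with none. They are only a part of the stretches found, so the number of lines per mRNA is not a count.
LDHA coding exon, chr11:18418468-18418489, plus strand: GGGGttGGtgctgttGGcatGG
LDHB coding exon, chr12:21807503-21807525, minus strand: GGGtgttGGacaagttGGtatGG
LDHA coding exon, chr11:18424527-18424549, plus strand: GGGtGGGtccttGGGGaacatGG
LDHB coding exon, chr12:21794897-21794919, minus strand: GGatGGattttGGGGGaacatGG
LDHA 3'UTR, chr11:18428871-18428886, plus strand: GGattctaGGtGGaGG
LDHA 3'UTR, chr11:18429824-18429841, plus strand: GGaGGccaGGaattGGGG
PKM coding exon, chr15:72502067-72502081, minus strand: GGtGGtGGaagtGGG
PKM 3'UTR, chr15:72491865-72491890, minus strand: GGcactGGtaGGttGGGacaccaGGG
ENO1 coding exon, chr1:8926369-8926384, minus strand: GGGGGatgaaGGcGGG
PGK1 coding exon, chrX:77369618-77369635, plus strand: GGaGGaagaaGGGaaGGG
TPI1 coding exon, chr12:6978862-6978884, plus strand: GGactGGagcaaGGtcgtcctGG

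The pattern was present in the CDS of 10 of 10 enzymes, beside 84.4% of 19528 canonical protein-coding transcripts. In the 3'UTR it was present in 6 of 10, GPI, TPI1, PGK1, PGAM1, PKM and LDHA, beside 63.2% of transcripts, and in the 5'UTR in 1 of 10, PGAM1, beside 52.5%. The mRNAs with clusters and those without both held the pattern in the CDS, as most transcripts do, so this count cannot separate them. With runs of at least 3 guanines it was found in 0 of 10 in the CDS, beside 6.2% of transcripts, and in 0 of 10 in the 3'UTR, beside 13.8%. For the mRNAs with printed stretches, matches with runs of 2 or more guanines were also counted. The CDS of PKM held 7, ENO1 4, PGK1 4, LDHA 3, LDHB 2 and TPI1 1. The 3'UTR of PGK1, 3465 nt long, held 5, PKM 2, LDHA 2 and TPI1 1, while ENO1 and LDHB had none there. Of the mRNAs without a cluster, PGK1 thus had more than LDHA or LDHB in either region, and TPI1 fewer in the CDS. These counts do not correct for the length of a region, and the enzymes' 5'UTRs are only 36 nt (TPI1) to 181 nt (ALDOA) long. A match is a description of the letters and not of a folded structure.

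The enzymes are described in the order of the pathway. GPI (chr19:34850385-34893318, plus strand) interconverts glucose 6-phosphate and fructose 6-phosphate. It had 431 crosslinked reads in 9 clusters with FH-DHX36 and 671 in 8 clusters with FH-DHX36-E335A. The NXPM was 2.08 and 0.798, with a recovered RNA abundance of 96.1, the lowest of the enzymes with a cluster. Its FH-DHX36 reads were spread over the annotations, with 100 in the CDS, 33 in the 3'UTR, 144 in introns and 154 in none of the annotated classes, called other below. With FH-DHX36-E335A, 423 of 671 reads were other (63.0%, Wilson interval 59.3 to 66.6), the CDS had 148 and the 3'UTR 85. With FH-DHX36, GPI was the enzyme with the largest intronic share, 33.4%. In the other PAR-CLIP its intronic share was 2.24%, below the 3.11% of ENO1.

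ALDOA (chr16:30075485-30081778, plus strand) encodes the aldolase that splits fructose 1,6-bisphosphate. It had 399 FH-DHX36 reads in 3 clusters and 774 FH-DHX36-E335A reads in 9 clusters. Its NXPM was 0.239 and 0.114 at an abundance of 774. The place of the reads differed between the cell lines. With FH-DHX36, a single CDS cluster held 343 of the 399 reads (86.0%, 82.2 to 89.0), whereas with FH-DHX36-E335A the CDS held 116 of 774 (15.0%, 12.6 to 17.7) and 469 reads were other. TPI1 (chr12:6976283-6980112, plus strand), which interconverts the 2 triose phosphates made by aldolase, had no cluster.

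GAPDH (chr12:6643678-6647540, plus strand) oxidizes glyceraldehyde 3-phosphate and is widely used as a reference transcript. It had the highest abundance of the enzymes, 3578, but only 146 FH-DHX36 reads in 2 clusters and 436 FH-DHX36-E335A reads in 5 clusters. The NXPM of 0.0189 and 0.0139 was the lowest of the enzymes in both PAR-CLIPs. All 146 FH-DHX36 reads lay in the CDS. With FH-DHX36-E335A, 47 lay in the 5'UTR, 132 in the CDS, 119 in the 3'UTR and 138 were other. PGK1 (chrX:77166236-77384792, plus strand), which makes the first ATP of the pathway, had no cluster.

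PGAM1 (chr10:99185948-99193201, plus strand), a phosphoglycerate mutase, had 39 FH-DHX36 reads in 1 cluster in the 3'UTR, at an abundance of 314 and an NXPM of 0.0574. No FH-DHX36-E335A cluster was called on it. ENO1 (chr1:8921059-8939249, minus strand), the enolase that makes phosphoenolpyruvate, had 1231 reads in 13 clusters and 2507 reads in 14 clusters. Its NXPM was 0.872 and 0.439 at an abundance of 653. The CDS held most ENO1 reads in both PAR-CLIPs, 944 (76.7%, 74.2 to 79.0) and 1486 (59.3%, 57.3 to 61.2).

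PKM (chr15:72491370-72524160, minus strand) encodes pyruvate kinase, which makes pyruvate and ATP. It had 1774 FH-DHX36 reads in 13 clusters and 3050 FH-DHX36-E335A reads in 16 clusters, the highest number of clusters among the enzymes for FH-DHX36-E335A. At an abundance of 212, the NXPM was 3.88 and 1.65. PKM was also the enzyme whose placement of reads was most alike in the PAR-CLIPs, with 56.9% (54.6 to 59.2) and 61.0% (59.3 to 62.7) in the CDS and 33.0% (30.8 to 35.2) and 30.6% (29.0 to 32.2) in the 3'UTR.

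LDHA (chr11:18416107-18429972, plus strand) and LDHB (chr12:21788276-21910791, minus strand) encode the subunits of lactate dehydrogenase, LDHA the one that prevails in muscle and LDHB the one that prevails in heart. LDHA had 1307 FH-DHX36 reads in 4 clusters and 9228 FH-DHX36-E335A reads in 12 clusters. Its NXPM was 4.11 and 7.16 at an abundance of 147, the highest of the enzymes in both PAR-CLIPs. LDHB had 3819 reads in 7 clusters and 4613 in 12 clusters, with an NXPM of 3.15 and 0.939 at an abundance of 561. LDHB thus had the most reads of the enzymes with FH-DHX36, and LDHA with FH-DHX36-E335A.

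The 2 dehydrogenase mRNAs differed in where the reads lay. All 3819 FH-DHX36 reads of LDHB were in the CDS, while 1209 of the 1307 FH-DHX36 reads of LDHA were in the 3'UTR (92.5%, 90.9 to 93.8) and 98 in the CDS. With FH-DHX36-E335A, LDHB again had most reads in the CDS, 3543 of 4613 (76.8%, 75.6 to 78.0), with 248 in the 3'UTR and 822 other. On LDHA, 8402 of 9228 FH-DHX36-E335A reads were other (91.0%, 90.4 to 91.6), in 3 clusters, while the CDS had 349 and the 3'UTR 477. The position of those 3 clusters is not given in the table. Further genes annotated on the same strand overlap LDHA (ENSG00000256006), GPI (ENSG00000266953), ALDOA (ENSG00000285043) and LDHB (ENSG00000285854). Their part in the other reads of these enzymes was not tested.

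The coding sequences of LDHA and LDHB were identical at 684 of 999 aligned nucleotides (68.5%). Of the 3 LDHA and 2 LDHB stretches with the guanine pattern in the CDS, 2 pairs lay at aligned places and are printed above. The pair that starts at positions 79 of the LDHA CDS and 81 of the LDHB CDS shared 22 aligned positions, and the pair at 559 and 562 shared 23. On the LDHA CDS there were 98.1 and 349 reads per kb with FH-DHX36 and FH-DHX36-E335A. The LDHB CDS had 3800 and 3525. LDHB RNA was also the more abundant, 561 beside 147. By NXPM of the CDS, which divides by abundance, LDHA was at 1.08 and LDHB at 11.1 with FH-DHX36, and at 1.60 and 4.26 with FH-DHX36-E335A. LDHB was thus the higher on both scales in both PAR-CLIPs, by less after division by abundance.

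**Figure D1:**
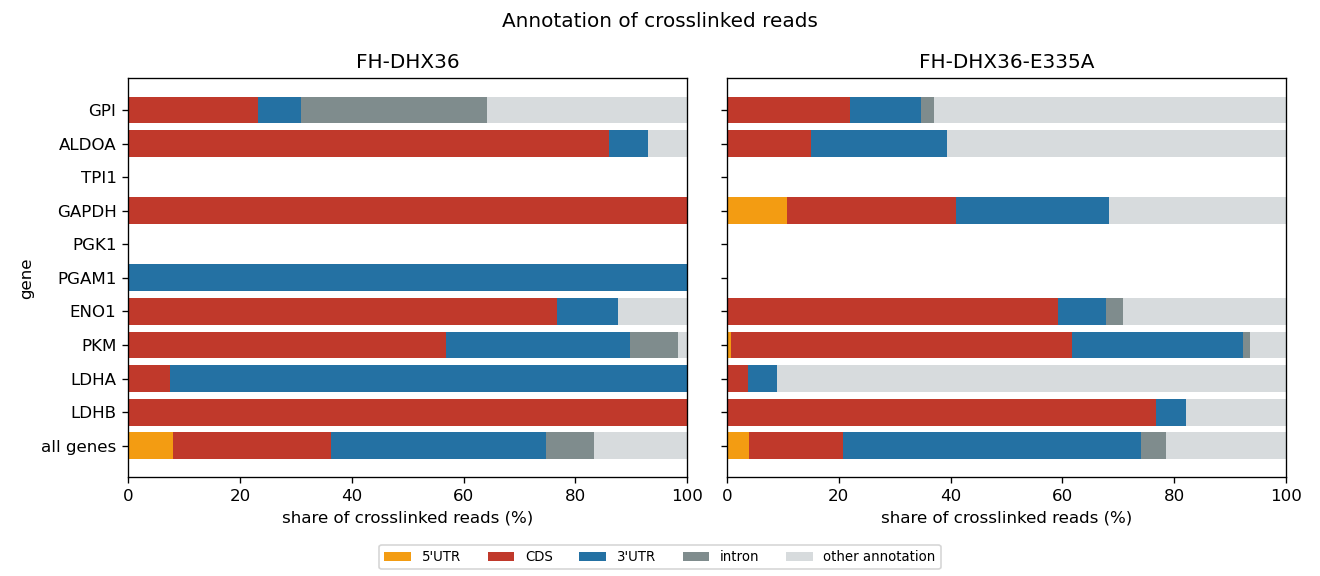
Share of each enzyme's crosslinked reads, in percent, in the 5'UTR, CDS, 3'UTR, introns and in other annotation, for FH-DHX36 (left) and FH-DHX36-E335A (right), with all genes in the lowest bar. An empty line marks an mRNA without a cluster. LDHA is nearly all 3'UTR (92.5%) on the left and nearly all other annotation (91.0%) on the right, while the CDS leads on LDHB in both panels.

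Summed over the enzymes, the CDS held 70.6% (69.7 to 71.5) of the FH-DHX36 reads and the 3'UTR 22.2%. Over all genes the CDS held 28.4% and the 3'UTR 38.4%. With FH-DHX36-E335A, the CDS held 35.9% (35.24 to 36.53) of the enzymes' reads, the 3'UTR 10.6% and other annotation 52.5%, beside 16.9%, 53.3% and 21.4% over all genes. A single mRNA set much of these sums. Without LDHB, with the most FH-DHX36 reads, the CDS share was 49.6%. Without LDHA, with the most FH-DHX36-E335A reads, the CDS held 60.5% and other annotation 23.1%.

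Counted by mRNA, more reads lay in the CDS than in the 3'UTR for 6 of 8 enzymes with FH-DHX36, all but PGAM1 and LDHA, where 44.8% of genes with reads in either region had this order. With FH-DHX36-E335A it was 5 of 7, all but ALDOA and LDHA, beside 31.5% of genes. More than 50% of reads were other for 0 of 8 enzymes with FH-DHX36, beside 10.4% of genes, and for 3 of 7 with FH-DHX36-E335A, GPI, ALDOA and LDHA, beside 12.6%. A 5'UTR cluster was called on 0 of 8 enzymes with FH-DHX36, beside 18.6% of genes, and on 2 of 7 with FH-DHX36-E335A, GAPDH and PKM, beside 20.4%. The few reads in 5'UTRs were the 47 on GAPDH and 20 on PKM. The 5'UTRs of the enzymes are at most 181 nt long (ALDOA), and the counts of 5'UTR clusters do not correct for length.

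Several of the mRNAs have a short 3'UTR, from 200 nt on LDHB to 2377 nt on GPI among those with clusters, so reads were also divided by the length of the region. With FH-DHX36-E335A, ENO1 had 1139 reads per kb of CDS and 589 per kb of 3'UTR, and LDHB had 3525 and 1240. PKM had 1166 and 1502 reads per kb. ALDOA had 92.3 and 936 reads per kb, and GAPDH 131 and 592. GPI had 88.3 and 35.8, and LDHA 349 and 417. In this PAR-CLIP the 3'UTR therefore exceeded the CDS per length on PKM and GAPDH, the reverse of their order in reads. With FH-DHX36, PKM had the same order, with 632 reads per kb of CDS and 942 per kb of 3'UTR. GAPDH had 145 per kb of CDS and none listed in the 3'UTR, and ALDOA had 273 and 139. The order of GAPDH and ALDOA was thus the opposite of that with FH-DHX36-E335A. Also with FH-DHX36, GPI had 59.6 and 13.9, ENO1 723 and 375, and LDHA 98.1 and 1057. LDHB had 3800 and none listed, and PGAM1 none listed and 42.4. Over the enzymes with a cluster, the CDS to 3'UTR ratio of reads per length was 2.00 for FH-DHX36 and 1.95 with FH-DHX36-E335A, beside 0.840 over 5592 genes and 0.381 over 8616 genes with a matched transcript. Without LDHB it was 0.881 with FH-DHX36, close to the value over all genes, and 1.27 with FH-DHX36-E335A, still above it. Regional NXPM was scaled by the authors to the reads of each region, so it was not summed or set against NXPM of the whole gene.

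The main contrast was between crosslinked reads and NXPM. By crosslinked reads, the enzymes with a cluster had a median of 831 for FH-DHX36, beside 121 over genes with a cluster, and of 2507 for FH-DHX36-E335A, beside 326. Above that median were 7 of 8 enzymes with FH-DHX36, all but PGAM1, and 7 of 7 with FH-DHX36-E335A. By NXPM, the enzymes stood low, with a median of 1.47, beside 7.84 over genes with a cluster, and of 0.798, beside 5.66. Above the median NXPM were 0 of 8 enzymes with FH-DHX36 and 1 of 7 with FH-DHX36-E335A, LDHA. NXPM was under 1 for 4 of 8 enzymes, beside 14.4% of genes with a FH-DHX36 cluster, and for 5 of 7, beside 18.4% of genes with a FH-DHX36-E335A cluster.

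In percentiles among genes with a cluster, the median enzyme was at 87.3 by reads and 18.1 by NXPM with FH-DHX36, and at 91.1 and 15.6 with FH-DHX36-E335A. By recovered abundance it was at 97.0 and 98.0. All enzymes with a cluster dropped from the first scale to the second. ENO1 went from 91.1 by FH-DHX36-E335A reads to 9.86 by NXPM, LDHB from 96.2 to 17.5, ALDOA from 71.1 to 3.54, and PKM from 93.1 to 25.9. LDHA went from 99.0 to 55.0, and GPI from 67.9 to 15.6. GAPDH was in the middle by reads, at 55.4 and 57.3, and close to the bottom by NXPM, at 0.911 and 0.624. PGAM1 was low on both FH-DHX36 scales, at 19.3 by reads and 1.82 by NXPM.

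**Figure D2:**
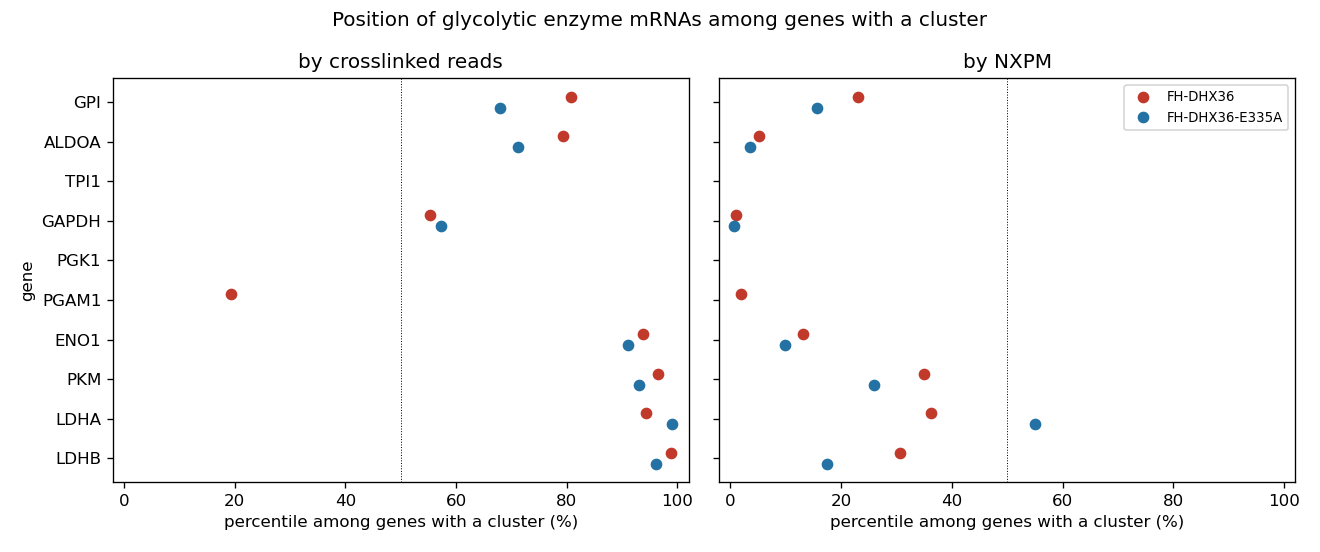
Percentile of each enzyme mRNA among genes with a cluster, by crosslinked reads (left) and by NXPM (right), with red points for FH-DHX36 and blue points for FH-DHX36-E335A. The dotted line is the middle gene, and TPI1 and PGK1, with no cluster, have no point. Nearly all points lie right of the line by reads and left of it by NXPM, and only LDHA with FH-DHX36-E335A (55.0) stays right.

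Abundance is the divisor of NXPM, and the enzymes with a cluster had abundances from 96.1 to 3578, a 37.2-fold range, beside a median of 7.30 over genes with a FH-DHX36 cluster and 5.89 over genes with a FH-DHX36-E335A cluster. Among the enzymes the mRNAs with more RNA did not have more reads. Spearman's rho of reads with abundance was -0.33 over 8 mRNAs with FH-DHX36 and -0.43 over 7 with FH-DHX36-E335A. With NXPM, which shares the divisor, it was -0.69 and -0.79. These correlations describe mRNAs of the same libraries. GAPDH, with the most RNA, and LDHA, with less than all but GPI, were the extremes in NXPM, which spanned a 217-fold range with FH-DHX36 and 514-fold with FH-DHX36-E335A.

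**Figure D3:**
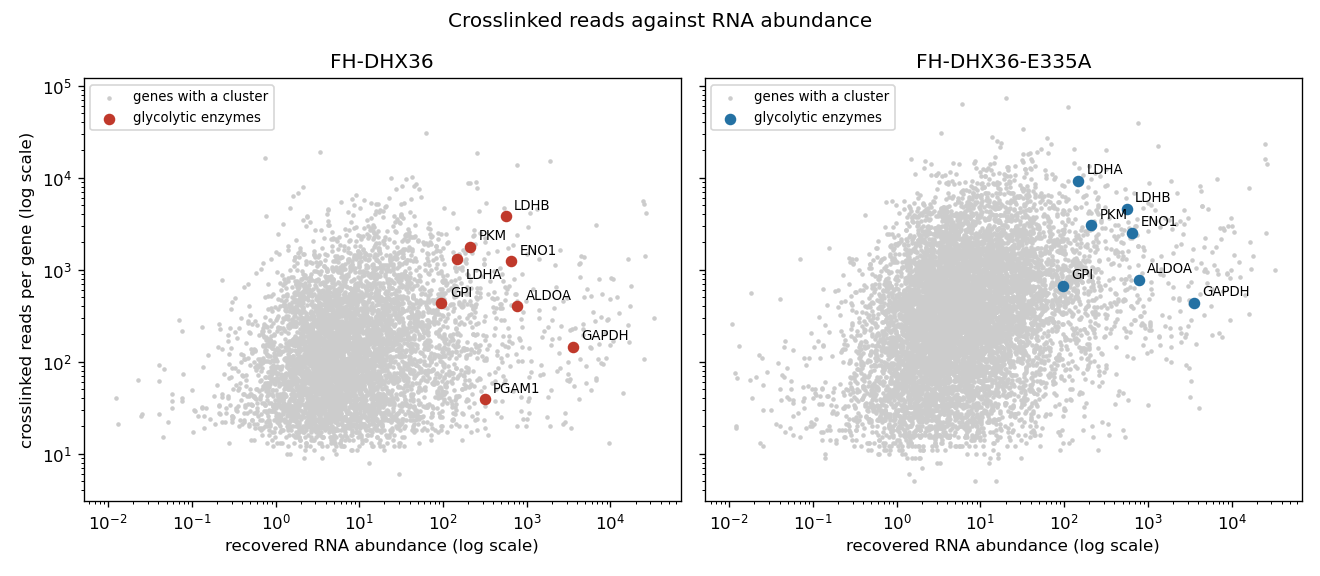
Crosslinked reads per gene against recovered RNA abundance, both on log axes, for genes with a cluster and an abundance of at least 0.01 (grey) and for the enzymes (red, FH-DHX36; blue, FH-DHX36-E335A). The enzymes lie at the abundant end, from GPI at 96.1 to GAPDH at 3578, with the most reads on LDHB and the fewest on PGAM1 in the left panel, and the most on LDHA and the fewest on GAPDH in the right panel.

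The enzymes were also ranked only among genes at least as abundant as GPI, a comparison chosen after the values were seen. There were 527 such genes with a FH-DHX36 cluster, with a median NXPM of 0.275, and 664 with a FH-DHX36-E335A cluster, with a median of 0.249. Against these, the median enzyme was at percentile 80.4 by NXPM for FH-DHX36 and 76.1 with FH-DHX36-E335A, so that the low place by NXPM did not hold among abundant mRNAs. LDHA was at 94.9 and 98.6, PKM at 93.9 and 88.0, LDHB at 91.1 and 80.4, GPI at 86.7 and 76.1, and ENO1 at 74.0 and 59.9. ALDOA was at 46.7 and 35.5, GAPDH at 10.2 and 8.58, and PGAM1 at 20.5 with FH-DHX36. Genes without a cluster, TPI1 and PGK1 among them, are not ranked, since no abundance can be recovered for them.

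Neither reads nor NXPM divides the crosslinked reads by transcript length. Cufflinks, named in the study's methods for RNA-seq, gives abundance per length, while the crosslinked reads of a long mRNA are summed over more sequence. The mRNAs of the enzymes with clusters are 1285 nt (GAPDH) to 4125 nt (GPI) long, beside a median of 3636 nt over the matched genes with a FH-DHX36 cluster and 3602 nt for FH-DHX36-E335A. Reads in the 5'UTR, CDS and 3'UTR per kb of mRNA were therefore compared as well. LDHB had 2931 and 2909 per kb in the PAR-CLIPs, PKM 692 and 1221, and ENO1 606 and 953, beside 23.5 and 65.7 for the median gene. LDHA had 583 and 369 per kb, ALDOA 226 and 186, GAPDH 114 and 232, and GPI 32.2 and 56.5. PGAM1 had 21.6 with FH-DHX36.

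On this scale LDHB was at percentile 99.8 for FH-DHX36 and 99.3 with FH-DHX36-E335A, and GPI was at 57.7 and 46.9. GPI has the longest of these mRNAs, and only 133 of its 431 and 233 of its 671 reads are counted here. The part of each in its place was not tested. Divided by abundance as well, LDHB, LDHA and PKM were at percentiles 64.3, 57.8 and 53.8 with FH-DHX36, and at 35.8, 23.6 and 37.9 with FH-DHX36-E335A. The other enzymes were below the middle gene in both PAR-CLIPs. LDHA, whose FH-DHX36-E335A reads were mostly other, fell the most from its place by NXPM in that PAR-CLIP. Both rankings kept matched genes that had a cluster but no reads counted here, which tied at the bottom. With FH-DHX36, 4630 of 5930 genes with a cluster had CDS or 3'UTR reads. GAPDH, at 0.911 by FH-DHX36 NXPM, was at 15.6 after both divisions. Such genes raise the percentiles and lower the values of the median gene. A ranking without them was not made, so whether LDHA and PKM would stay above the middle with FH-DHX36 is not known.

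Between the cell lines, the raw read number of each of the 7 enzymes with a cluster in both was larger for FH-DHX36-E335A, as it was for 89.3% of 5669 genes. The deposited FH-DHX36-E335A reads were 4.05 times as many in all. In RPM, 6 of 7 enzymes were higher with FH-DHX36, all but LDHA, beside 46.6% of genes. The RPM ratio of FH-DHX36-E335A to FH-DHX36 was 0.298 (0.286 to 0.311) for LDHB, 0.384 (0.340 to 0.435) for GPI and 0.424 (0.400 to 0.450) for PKM. It was 0.479 (0.424 to 0.542) for ALDOA, 0.503 (0.469 to 0.539) for ENO1 and 0.737 (0.610 to 0.895) for GAPDH. The median of the 7 was 0.479, beside 1.09 over all 5669 genes. These intervals leave out the spread between replicates, so whether the cell lines differ beyond it was not tested.

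LDHA stood alone with a ratio of 1.74 (1.64 to 1.85). This rested on the reads in other annotation. Counting only the 5'UTR, CDS and 3'UTR, LDHA had 1307 FH-DHX36 and 826 FH-DHX36-E335A reads, an RPM ratio of 0.156 (0.143 to 0.170), the lowest of the enzymes. On the same count LDHB was at 0.245, ALDOA at 0.203, ENO1 at 0.388, GPI at 0.432, PKM at 0.436 and GAPDH at 0.504. Reads of these labelled classes are called exonic here and below. Whether reads in other annotation also lay in exons is not known, as their positions are not given. By exonic reads in this sense, all 7 enzymes were lower in RPM with FH-DHX36-E335A, as were 48.5% of the 4790 genes with exonic reads in both.

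**Figure D4:**
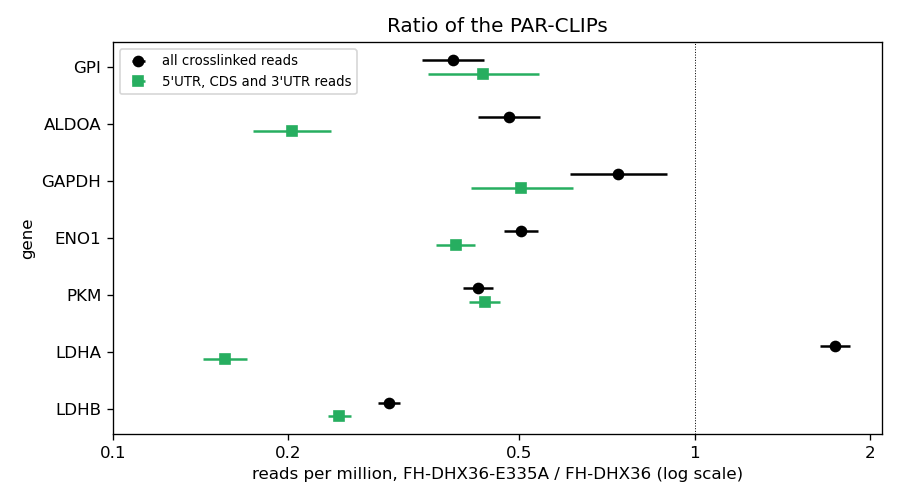
Ratio of crosslinked reads in RPM, FH-DHX36-E335A over FH-DHX36, on a log axis, for the 7 enzymes with a cluster in both PAR-CLIPs, from all reads (black circles) and from 5'UTR, CDS and 3'UTR reads (green squares). Bars are 95% intervals for counting error, and the dotted line marks equal values. Only LDHA lies right of the line (1.74), and it is leftmost (0.156) by exonic reads.

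Other enzymes of glycolysis, from hexokinase and phosphofructokinase to bisphosphoglycerate mutase, were counted as well. A cluster was called for 5 of 9 with FH-DHX36, beside 22.4% of all genes, and for 6 of 9 with FH-DHX36-E335A, beside 34.5%. PFKP, a phosphofructokinase, had 847 and 714 reads and an NXPM of 10.7 and 2.23. PFKM, its muscle form, had 118 and 379 reads, and BPGM had none listed and 383. The median NXPM of this group was 9.54 and 3.56, beside 1.47 and 0.798 for the 10 enzymes followed here. By crosslinked reads the order was the reverse, with medians of 156 and 334, beside 831 and 2507. Each gene of this group with a cluster had a lower recovered abundance, the divisor of NXPM, than GPI. The higher NXPM therefore did not come with more reads. Of 12 paralogs of the 10 enzymes, such as tissue-restricted forms of aldolase and enolase, 0 had a cluster in either PAR-CLIP.

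Reads of the enzymes can be shared with processed pseudogenes. The annotation holds 104 pseudogenes of the 10 enzymes, of which 65 are of GAPDH, 13 of PGAM1, 2 to 6 of each other enzyme and 0 of GPI. The deposited table lists 3 of them, TPI1P2, TPI1P3 and PGAM1P5, all with 0 crosslinked reads. How reads that match an mRNA and its pseudogenes equally well were counted is not given in the sources used here, so the values of all enzymes but GPI, the missing clusters of TPI1 and PGK1 included, are uncertain to an extent that was not tested.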

How the data were processed

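Crosslinked read counts and numbers of clusters per gene and annotation class were deposited by the authors as raw counts, in 1 table with 1 value per cell line. The authors also deposited NXPM, a score that relates reads, scaled to the library total, to RNA abundance by division. The authors mapped reads to hg19 and called clusters with PARalyzer inside PARpipe, annotated with GENCODE v19. The submitters' processing notes name bcl2fastq 2.17.1. All 30 value columns were used or mapped to a cell line.

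The 10 enzymes and the other gene lists were chosen with earlier results of these data known, and a supplementary sheet with values of the enzymes had been read. Counts and summed values covered all enzymes with data, but some passages give single values for only a part of the enzymes. Of other lists, at most the 3 genes with the most FH-DHX36-E335A reads were named. Abundance was recovered as scaled reads over NXPM, minus 0.001. The recovery was run on simulated data made with the same formula, which checks the calculation only. Neither this nor the equal values from both PAR-CLIPs tests the constant of 0.001. Percentiles were taken over genes with a cluster, and list medians over members with a cluster. Shares have 95% Wilson intervals and ratios exact conditional binomial intervals, which cover counting error only, since PCR copies are not independent molecules. Lengths and sequences came from canonical transcripts of GENCODE release 44 on GRCh37, and 52 of 52 guanine stretches were identical to the genome. Alternatives were another ranking base, clusters for reads, exonic reads, longest transcripts, other totals and other guanine patterns. Python 3.11.15, pandas 2.3.3, scipy 1.17.1 and biopython 1.88 were used.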

Additional observations from a re-analysis of the deposited data

How the results depend on the processing

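With 1 value per gene and cell line, depth limits only counting error, and no replicate could be left out. No paired analysis was possible because the replicates were combined in the deposited table. Of 81 alternative values, 19 moved by less than counting error or, for counts, less than 1.5 times. The cause of the other changes was not tested except where the setting itself shows it. Values are given for FH-DHX36 and then FH-DHX36-E335A.

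With enzymes without a cluster set to 0, median reads were 415 and 722.5 and median NXPM 0.555 and 0.276. Without LDHA, chosen after seeing the data, median reads were 431 and 1640.5. NXPM from exonic reads had a median of 0.703 and 0.297. The median percentile by reads was 97.2 and 96.9 among all genes of the table, 79.1 and 81.6 among genes at least as abundant as GPI, and 93.7 and 85.7 for exonic reads per mRNA length, the last 2 chosen after seeing the data. The median percentile by NXPM crossed the middle to 81.7 and 70.9 among all genes of the table, most of which have no cluster, and to 80.4 and 76.1 among genes at least as abundant as GPI. It was 19.3 and 17.3 among genes with an abundance of at least 1, and 25.3 and 17.0 for exonic reads per mRNA length. Rankings by exonic reads per mRNA length kept genes without exonic reads, which raises the percentiles.

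Counted as clusters, the CDS share was 59.6% and 55.3%, the 3'UTR share 21.2% and 15.8% and the other share 11.5% and 21.1%. As means of the enzymes' shares these were 56.3% and 38.3%, 31.4% and 16.3%, and 7.08% and 42.8%. Without the enzyme with the most reads they were 49.6% and 60.5%, 38.1% and 14.8%, and 6.80% and 23.1%. Of exonic reads, the CDS held 76.1% and 76.6% and the 3'UTR 23.9% and 22.7%. Without LDHB, chosen after seeing the data, the ratio of CDS to 3'UTR reads per length turned to 0.881 with FH-DHX36 and was 1.27 with FH-DHX36-E335A.

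As a ratio of raw reads, FH-DHX36-E335A over FH-DHX36, the median was 1.94, and GPI was at 1.56, ALDOA at 1.94, GAPDH at 2.99, ENO1 at 2.04, PKM at 1.72 and LDHB at 1.21, all on the other side of 1 from the RPM ratio. By exonic reads the median was 0.388 and LDHA turned to 0.156. With runs of at least 3 guanines, 0 of 10 enzymes matched in the CDS and 0 of 10 in the 3'UTR, beside 6.2% and 13.8% of all transcripts.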

Other observations

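Genes around glycolysis were counted from the same table. Over all genes, 22.4% had a FH-DHX36 cluster and 34.5% a FH-DHX36-E335A cluster, and each count below stands beside these shares. Of 7 glucose and lactate transporter genes, 2 had a FH-DHX36 cluster and 4 a FH-DHX36-E335A cluster. SLC16A1, a monocarboxylate transporter that carries lactate, had 2604 and 8875 crosslinked reads at an abundance of 16.8, with an NXPM of 71.6 and 60.2. LDHA had 1307 and 9228 reads at an abundance of 147, with an NXPM of 4.11 and 7.16, so that similar read numbers with FH-DHX36-E335A stood beside an unlike NXPM. BSG, the chaperone of that transporter, had 412 and 1083 reads, and SLC2A1, a glucose transporter, had none listed and 29.

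Of 5 genes of the pyruvate dehydrogenase complex, 3 and 4 had a cluster, led by DLD with 168 and 3597 reads. PDHA1 had none listed and 1540 reads, and PDHB had 379 and 1016. Of 7 genes of the pentose phosphate pathway, 5 and 6 had a cluster, with 553 and 2675 reads on TKT, none listed and 1350 on RPIA, and 121 and 1037 on RPE. Most of the FH-DHX36-E335A reads of TKT, 2554 of 2675, were in other annotation, as they were for LDHA. With FH-DHX36 the genes differed, with 469 of 553 reads in other annotation on TKT and 0 of 1307 on LDHA.

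Of 11 regulators of glycolysis, 3 and 7 had a cluster. MYC, a transcription factor that raises glycolytic genes, had 66 and 2001 reads, of which 37 and 486 lay in the CDS and 29 and 697 in the 3'UTR. PFKFB3, which makes an activator of phosphofructokinase, had 64 and 987 reads, of which 44 and 968 lay in the 3'UTR. PDK4, a kinase that inhibits pyruvate dehydrogenase, had none listed and 516 reads, of which 266 lay in the 3'UTR. Of 7 genes of gluconeogenesis, 1 and 2 had a cluster, with 38 and 62 reads on G6PC3.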
